A study of Arabidopsis thaliana with 6 samples.

Results

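Glutathione S-transferases (GSTs) and UDP-glycosyltransferases (UGTs) of Arabidopsis thaliana were examined on arrays of whole plants, comparing the wild type with a mutant that the labels call atm. They were taken as every probe set annotated to a single gene whose symbol starts with GSTU, GSTF, GSTL, GSTT or GSTZ (also with the prefix AT), or with UGT and a digit. A probe set is a group of short oligonucleotides on the array that together measure a transcript. The rule used names alone, with no filter on expression. It found 61 of the 22746 probe sets, 14 of them for GSTs and 47 for UGTs, each for a different gene, among 13356 genes that had a probe set of their own. The GSTs were 11 of the tau class, 2 of the phi class and 1 of the lambda class. None was named for the theta or zeta class. The UGTs came from 11 families, numbered from UGT71 to UGT88. The gene table used here names 48 GST and 58 UGT genes by such symbols. The members are therefore a part of each family, and for the GSTs a small one.

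Total RNA of plants at growth stage 1.04 had been hybridised to ATH1 arrays, 3 of the wild type (accession Col0, stock N1092) and 3 of the mutant. ATM is a kinase that signals broken DNA to repair and the cell cycle. The mutant appears in the labels as atm, as ATM1 and as AtATM3 mutant, with the stock code N589805, so its allele is not settled. All plants were grown at 22 °C in 9 h of light and 15 h of dark. The medium was MS at 0.5 strength with 1% phytoagar and 1% sucrose. The series title speaks of X-ray inducible transcripts, but the labels give no irradiation, dose or time, and the groups differ by genotype alone. Whether replicates were grown separately is not given, so the p-values rest on a spread between samples that may be technical. ATM itself was not among the annotated genes, and the genotype was not checked at that transcript.

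GSTs join the tripeptide glutathione to reactive, often electrophilic, compounds or use it to reduce them. The tau and phi classes are the large classes found in plants, and many of their genes are known for induction by herbicides, oxidants, hormones and pathogens. Lambda enzymes carry a cysteine in the active site and act as thiol transferases. UGTs transfer a sugar from a UDP-sugar to small molecules such as flavonoids, monolignols, hormones and xenobiotics, which changes their solubility, activity and storage. Many genes of both families stand in tandem rows made by local duplication.

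A pair of arrays stood apart from the rest whatever their genotype. They were wild type replicate 1 and atm mutant replicate 2, whose deviations from their group means correlated at 0.647 across the 13895 probe sets that passed a filter on dim signals (probe sets are not independent of each other). The control probe set for 25S ribosomal RNA read 836 and 2123 on them, and 4106 to 5400 on the other 4. These 2 arrays, 1 of each genotype, are called the pair from here on, and results that rest on them are given with and without them. The green tissue markers RCA and SBPASE summed to signals between 5826 and 7988 on the wild type and between 6622 and 7312 on the mutant arrays. The root markers PYK10, EXPA7 and EXPA18 summed to between 3024 and 3412 and between 3007 and 3712. Both sums overlapped between genotypes, and neither set holds a marker at 0. They moved with the pair of arrays: the green sums were highest there, at 7988 and 7312 against 5826 to 6910 on the other 4 arrays, and the root sums lowest, at 3024 and 3007 against 3334 to 3712. These sums are mostly RCA, at 6177 and 5520 on the pair, and PYK10, at 2957 and 2931. EXPA18 was also lowest on the pair, but SBPASE and EXPA7 did not follow it. SBPASE read 1811 and 1792 on the pair and 1796 on mutant replicate 3. EXPA7 read 25.7 and 34.1 on the pair and 21.9 to 44.8 elsewhere.

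In the wild type, signals were read against the 40th percentile of each array, which lay between 24.7 and 25.8. The values are the authors' MAS5 signals on a linear scale. Probe sets differ in how well they bind, so the signals of different genes are not compared here as amounts of transcript. Of the 14 GSTs 9 lay above the 40th percentile on all 3 wild type arrays, and so did 23 of the 47 UGTs. Over all probe sets the share was 55.3%, with 64.3% for the GSTs and 48.9% for the UGTs. An average rank below the 20th percentile, where MAS5 values are noisy, was found for 2 GSTs and 13 UGTs.

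**Figure D1:**
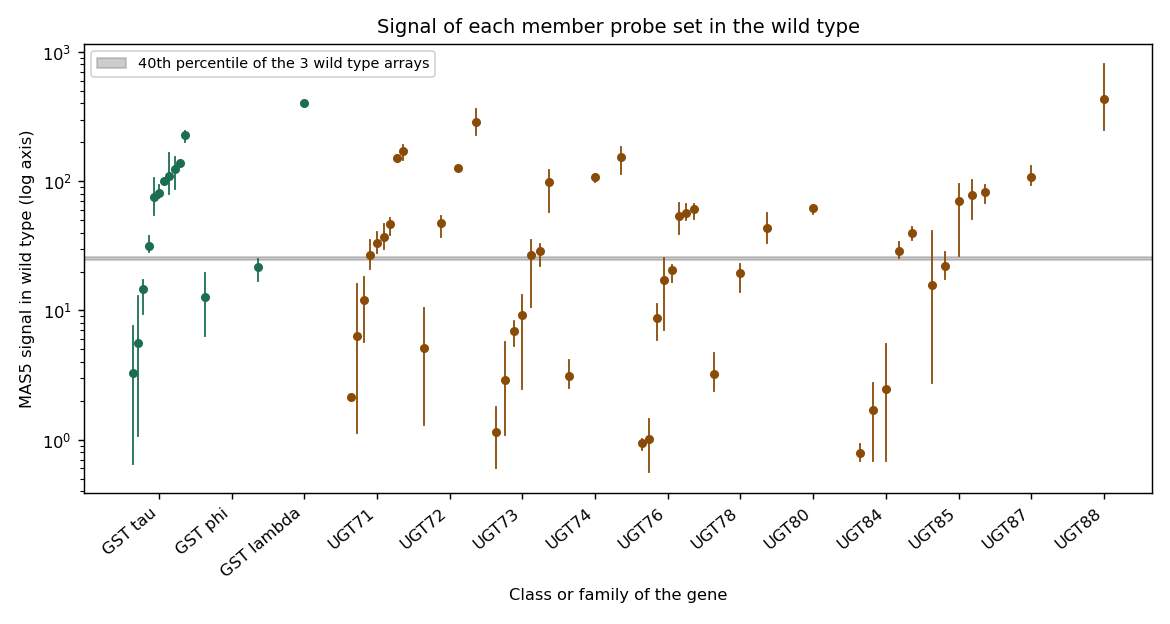
Mean MAS5 signal of each of the 61 probe sets in the wild type (points, log axis), with the lowest and highest of the 3 wild type arrays as a line, by GST class or UGT family. The grey band marks the 40th percentile of the 3 arrays, 24.7 to 25.8. The lambda GST and the single UGT88, UGT87 and UGT80 genes lie above it, both phi GSTs have means below it, and the other classes and families have members on both sides.

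Among the tau GSTs 8 of 11 were above the 40th percentile on every wild type array. GSTU22 read 202, 243 and 243 on wild type replicates 1, 2 and 3. GSTU20, known to interact with the jasmonate-conjugating enzyme FIN219/JAR1, read 137, 138 and 137. GSTU25, an enzyme able to conjugate the explosive TNT, read 105, 93.6 and 101. These 3 genes varied little between wild type arrays. GSTU18, in contrast, read 165 on replicate 1 and 84.5 and 79.8 on the others, and GSTU16 read 106 on replicate 1 and 55.2 and 65.9 on the others. The 3 tau genes below the 40th percentile were GSTU23 (9.38 to 17.3), GSTU15 (1.06 to 12.9) and GSTU21 (0.651 to 7.52). The 2 phi genes covered here were dim as well, GSTF4 at 17.0 to 24.8 and ATGSTF13 at 6.33 to 19.5. GSTL3, the lambda gene, read 405, 413 and 394.

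The UGTs of phenylpropanoid metabolism were spread over the whole range of signals. UGT72E1 and UGT72E2, which glucosylate phenylpropanoids, had mean wild type signals of 289 ± 69.0 and 127 ± 6.15 (SD, n = 3 each). Their relative UGT72E3 read at most 10.5. UGT84A3 and UGT84A4, which form glucose esters of hydroxycinnamic acids, had 39.9 ± 4.59 and 28.9 ± 4.22, while UGT84A1, with the same kind of substrate, stayed at or below 0.926. Of the flavonoid genes UGT78D2, a flavonoid 3-O-glucosyltransferase, had 43.5 ± 12.2. UGT78D1, a flavonol rhamnosyltransferase, read between 13.9 and 23.0, and UGT78D3, an arabinosyltransferase, between 2.40 and 4.65. UGT88A1, which accepts flavonols in vitro, had 433.5 ± 318, a spread that came from wild type replicate 1.

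The UGTs that act on hormones and defence compounds also held bright and dim genes. UGT74B1, which acts in the synthesis of the glucosinolate core, had 153 ± 35.7 in the wild type (SD, n = 3 here and in the next sentences). UGT74D1, an auxin glucosyltransferase, had 108 ± 8.16, and UGT71C5, which glucosylates abscisic acid, 152 ± 7.22. UGT76C1 and UGT76C2, which N-glucosylate cytokinins, had 60.9 ± 8.84 and 57.0 ± 8.71. UGT76B1, which glucosylates isoleucic acid and salicylic acid, had 54.1 ± 14.5. All of these lay above the 40th percentile. UGT74F1, a salicylic acid glucosyltransferase, read 2.49 to 4.17, and the auxin glucosyltransferase UGT84B1 0.683 to 5.49. UGT71B6, which glucosylates abscisic acid, read 2.06 to 2.23. Outside this group, UGT80B1, a sterol glucosyltransferase of the seed coat and membranes, had 62.4 ± 5.48. UGT87A2, known for an effect on flowering time, had 107 ± 21.2.

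Genotypes were compared on the log2 scale with limma, which shares the estimate of spread over all probe sets, and p-values were adjusted over all 13895 probe sets by the Benjamini-Hochberg method. To be tested, a probe set had to exceed its array's 40th percentile 3 times or more among the 6 arrays. It passed 33 of the 61 members, 9 GSTs and 24 UGTs. Of these, 29 lay above the 40th percentile on all 6 arrays. GSTU28 and UGT71C1 did so on 3 wild type arrays and 1 mutant array, and UGT71C2 on 3 and 2, so the wild type, where they read higher, met the rule by itself. UGT73B5 passed with 2 arrays of each genotype. The other 28, 5 GSTs and 23 UGTs, were not tested.

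No GST and no UGT passed the test. Limma called 0 of 9 GSTs and 0 of 24 UGTs at an adjusted p under 0.05, where it called 0.223% of all probe sets, every one lower in the mutant. At an unadjusted p under 0.05 there were 3 GSTs, 2 lower and 1 higher, and 1 UGT, lower, against 3.36% of all probe sets, 2.16% lower and 1.2% higher. The lowest adjusted p was 0.758, for GSTU22, and that of the other 32 was 0.9996 or more. All changes were under 2-fold, from -0.50 to 0.34 on the log2 scale for the tested GSTs and from -0.54 to 0.28 for the tested UGTs. Over the tested members the median log2 change was -0.05 for GSTs, with 5 lower and 4 higher, and -0.10 for UGTs, with 14 lower and 10 higher. Over all tested probe sets it was 0.01. A missed threshold does not show that the genotypes were alike. The 95% interval of the change stayed within 2-fold in either direction for 7 of 9 GSTs and 20 of 24 UGTs, against 87.2% of all probe sets. It reached beyond 2-fold for GSTU27, GSTU28, UGT71C1, UGT71C2, UGT85A5 and UGT88A1.

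**Figure D2:**
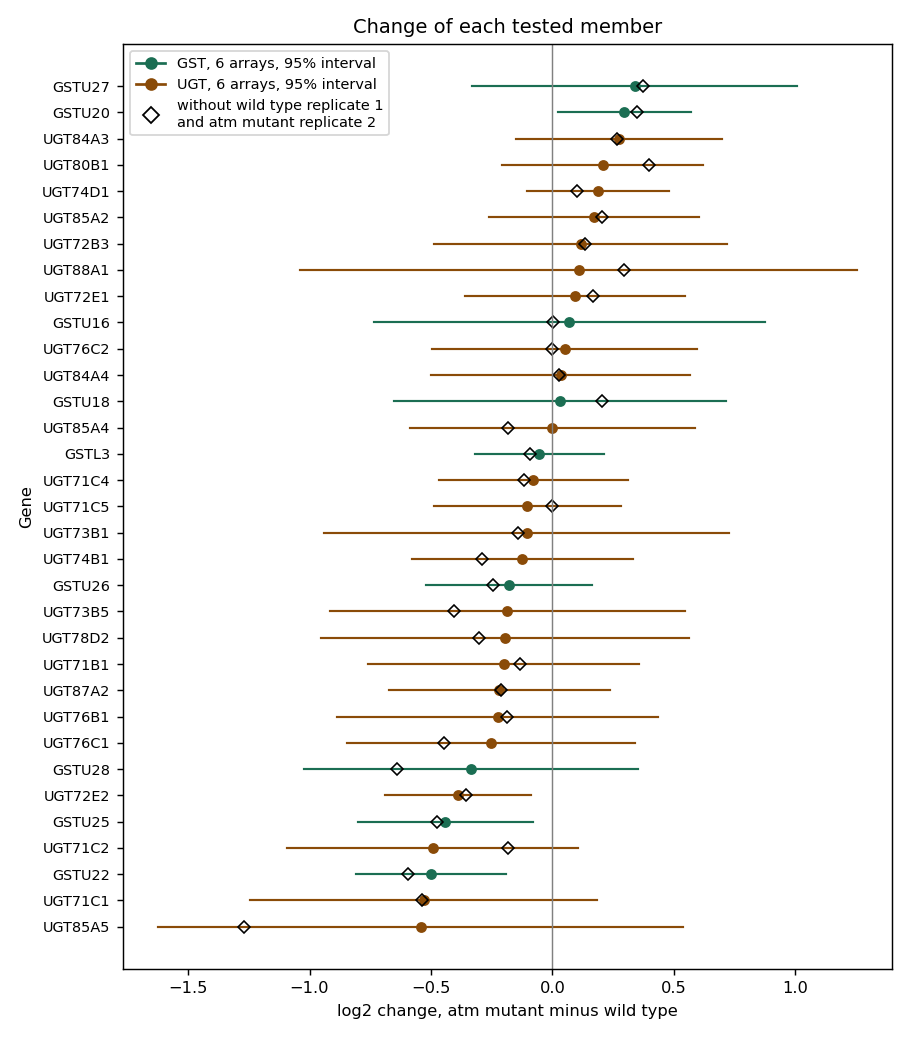
Change of the 33 tested members as atm mutant minus wild type on the log2 scale, with 95% intervals from limma over 6 arrays (GSTs green, UGTs brown) and, as open diamonds, the change without the pair of arrays that stood apart. The intervals of GSTU22, GSTU25, GSTU20 and UGT72E2 leave out 0 before adjustment, and the diamond of UGT85A5 lies at -1.27, far to the left of its point at -0.54.

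Among all 33 tested members GSTU22, a tau GST, had the smallest p. It had signals of 202, 243 and 243 in wild type replicates 1, 2 and 3, and 151, 162 and 172 in the mutant replicates. Every mutant array read below every wild type array. The log2 change was -0.50 (SE 0.13, limma adjusted p = 0.758, 95% interval from -0.81 to -0.19), a mean of 229 ± 23.6 against 162 ± 10.7 (SD, n = 3 each). Without the pair of arrays it was -0.59 (SE 0.12), and there limma called it, with an adjusted p of 0.0309. This call depended on the filter on dim signals: the adjusted p on these 4 arrays was 0.0266 with the filter remade on them and 0.0611, not past the threshold, with no filter. Within the pair the change was -0.31. GSTU22 had the same direction in both sets of arrays, and its change ranged from -0.59 to -0.44 over 19 alternatives, 2 of which called it.

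GSTU25 read 105, 93.6 and 101 in wild type plants and 61.7, 81.5 and 79.4 in the mutant. Here too the genotypes did not overlap, and the lowest value was that of mutant replicate 1. The log2 change was -0.44 (SE 0.16, 95% interval from -0.80 to -0.08), -0.47 without the pair (adjusted p = 0.257) and -0.37 within it. Its neighbour GSTU26 read 74.7, 94.1 and 75.2 in wild type plants and 69.8, 72.5 and 72.1 in the mutant. The groups of GSTU26 were separated narrowly, by 74.7 against 72.5, with a log2 change of -0.18 (SE 0.15).

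GSTU20 went the other way. It read 137, 138 and 137 in wild type plants and 176, 157 and 173 in the mutant, so all mutant arrays were higher. The log2 change was 0.30 (SE 0.12, 95% interval from 0.02 to 0.57), 0.35 without the pair (adjusted p = 0.240) and 0.19 within it. GSTU20 and GSTU22 stand in the same row of neighbouring genes, which in the order of the gene table used here runs GSTU23, GSTU22, GSTU21, GSTU20. GSTU23 and GSTU21 were dim, at 9.07 to 17.3 and 0.589 to 18.1 over the 6 arrays, and were not tested. The 2 bright genes of this row therefore had opposite directions, neither past the adjusted threshold. The difference between them was not tested.

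The other tested GSTs overlapped between genotypes. GSTU27 read 87.2, 153 and 130 in wild type plants and 203, 105 and 165 in the mutant, a log2 change of 0.34 (SE 0.29). Its lowest wild type and lowest mutant values were those of the pair. Without them the change was 0.38 (SE 0.14, adjusted p = 0.287), with a smaller error. Leaving out only wild type replicate 1 gave 0.11, and leaving out only mutant replicate 2 gave 0.61. GSTU28 read 28.5, 37.4 and 29.4 in wild type plants and 24.6, 34.4 and 18.4 in the mutant, a log2 change of -0.33 (SE 0.30) that lay between -0.57 and -0.11 when 1 array was left out. GSTL3 read 405, 413 and 394 against 360, 412 and 398, a log2 change of -0.05 with a 95% interval from -0.32 to 0.21, the smallest error among the tested GSTs.

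**Figure D3:**
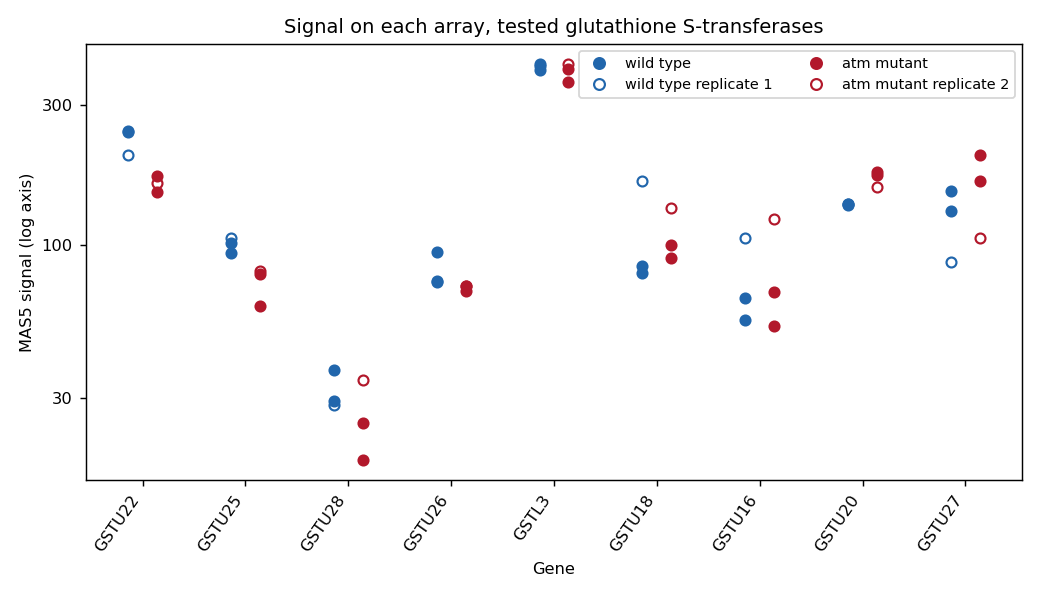
MAS5 signal of the 9 tested GSTs on each of the 6 arrays (log axis), wild type in blue and atm mutant in red, with the pair of arrays that stood apart as open circles. In GSTU22, GSTU25 and GSTU26 all 3 mutant points lie below the wild type points, and in GSTU20 they lie above; in GSTU18 and GSTU16 the open circles are the highest of both genotypes.

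The genotypes did not overlap in 4 of the 9 tested GSTs, or 44.4%, with 3 lower and 1 higher, and in 3 of the 24 tested UGTs, or 12.5%, with 2 lower and 1 higher. Over all tested probe sets the share was 8.66%, with 4.85% lower and 3.81% higher in the mutant. The UGT share lies near this background, and the GST share rests on 9 genes with no test. Over all 61 members, dim ones included, the count was 11, against 9.19% of all probe sets.

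Of the UGTs of phenylpropanoid metabolism, UGT72E2, a monolignol glucosyltransferase, had the smallest p. It read 120, 132 and 130 in wild type plants and 100.3, 88.0 and 104 in the mutant. All mutant arrays were lower, with means of 127 ± 6.15 and 97.5 ± 8.44 (SD, n = 3 each). The log2 change was -0.39 (SE 0.13, 95% interval from -0.69 to -0.09, limma adjusted p = 0.9996), -0.36 without the pair (adjusted p = 0.282) and -0.45 within it. UGT72E1, of the same family, read 363, 227 and 277 against 265, 350 and 298, with a log2 change of 0.09 (SE 0.20). The 2 arrays with the highest UGT72E1 values were the pair. UGT84A3 had 39.9 ± 4.59 in wild type plants and 48.3 ± 5.60 in the mutant, a log2 change of 0.28 (SE 0.18), and UGT84A4 a log2 change of 0.03 (SE 0.23). UGT78D2 had a log2 change of -0.20 (SE 0.33). Its values of 56.9 and 57.5 on the pair stood above 29.1 to 40.5 on the other arrays.

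UGT71C1 and UGT71C2 are neighbours, and their products glucosylate phenolic compounds. UGT71C2 read 46.8, 35.1 and 29.7 in wild type plants and 29.2, 21.6 and 27.8 in the mutant. Its groups did not overlap, but only by 29.7 against 29.2, and the log2 change was -0.49 (SE 0.26). The size of that change rested on the pair, within which it was -1.11, while the other 4 arrays gave -0.18. UGT71C1 read 27.7, 40.3 and 32.4 against 33.0, 19.4 and 18.7, a log2 change of -0.53 (SE 0.31) that was -0.54 without the pair and -0.51 within it. Mutant replicate 1 overlapped with the wild type. The other row of this family, UGT71C5, UGT71C4 and UGT71C3, gave log2 changes of -0.10 (SE 0.17) and -0.08 (SE 0.17) for the tested UGT71C5 and UGT71C4. UGT71C3 was dim at 11.2 to 35.2.

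The UGT85A genes form a row of 4 neighbours, in the order UGT85A7, UGT85A2, UGT85A5 and UGT85A3. UGT85A5 read 26.5, 94.7 and 89.1 in wild type replicates 1, 2 and 3, and 34.9, 50.0 and 41.5 in the mutant. The lowest of the 6 values was in the wild type, on the array that stood apart, and the groups overlapped. The log2 change was -0.54 (SE 0.47) with 6 arrays, -1.14 without wild type replicate 1 alone, -0.22 without wild type replicate 2, -0.26 without wild type replicate 3 and -1.03 with array weights, none of them past the threshold. Without the pair it was -1.27 (SE 0.19), and limma called it with an adjusted p of 0.00432 (0.00369 with the filter remade on these arrays and 0.0264 with no filter), while within the pair it was 0.92, in the opposite direction. The direction in UGT85A5 thus differed between the 2 sets of arrays, and a difference in a pair of single arrays has no replicate check. UGT85A2, next to it, read 86.9, 68.2 and 93.2 against 77.3, 93.4 and 109, a log2 change of 0.17 (SE 0.19). UGT85A4, which stands apart from this row, read 51.4, 83.7 and 101 against 82.2, 66.4 and 79.9, with means of 78.8 and 76.2 and a 95% interval of the log2 change from -0.59 to 0.59. UGT85A7 spread from 2.76 to 41.2 within wild type plants and UGT85A3 from 15.8 to 29.4 over all arrays, and neither was tested.

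UGT71B1, UGT72B3, UGT80B1 and UGT87A2 are given here beside the UGTs that act on hormones and defence compounds. Of the latter, UGT74D1 had the higher values in the mutant, with 98.9, 114 and 111 in wild type plants and 125, 127 and 117 in the mutant. Its groups did not overlap, and the log2 change was 0.19 (SE 0.13). UGT74B1 had a log2 change of -0.12 (SE 0.20), from 113, 182 and 163 against 130, 131 and 154. UGT71B1 had a log2 change of -0.20 (SE 0.24), and UGT72B3 one of 0.12 (SE 0.26). UGT76C1 read 67.1, 50.8 and 64.7 against 43.9, 73.9 and 40.2, a log2 change of -0.25 (SE 0.26), and its neighbour UGT76C2 had 0.05 (SE 0.24). UGT76B1 had a log2 change of -0.22 (SE 0.29). UGT80B1, the sterol enzyme, read 65.7, 65.4 and 56.1 against 77.4, 58.1 and 82.5. That is a log2 change of 0.21 (SE 0.18), and 0.40 (adjusted p = 0.349) without the pair. UGT87A2 had a log2 change of -0.22 (SE 0.20).

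Of the UGT73 family, whose members UGT73B4 and UGT73C1 are known to glucosylate xenobiotics such as TNT, 2 of 7 probe sets were tested. UGT73B1 read 58.1, 122 and 117 in wild type plants and 96.8, 56.8 and 121 in the mutant, a log2 change of -0.11 (SE 0.36). The 2 low values were those of the pair. UGT73B5, known as a gene induced by pathogens and oxidative stress, read 22.3, 32.4 and 32.2 against 17.9, 26.5 and 33.2, a log2 change of -0.19 (SE 0.32). Its neighbour UGT73B4 read 10.6, 35.1 and 34.6 against 2.70, 7.62 and 16.2. It exceeded the 40th percentile on only 2 arrays, both wild type, so it missed the filter and was not tested. With no filter its log2 change was -1.76 (SE 0.76, limma adjusted p = 0.9997). The change was -2.40 without the pair and -0.48 within it, and 2 of its mutant values lay below the 20th percentile. UGT73C2 read 5.30 to 8.27 in wild type plants and 0.397 to 4.44 in the mutant, and UGT73C1 0.603 to 2.31 over all arrays. The signals of UGT73C2 and UGT73C1 are near or under the 20th percentile of 6.77 to 8.01, where differences on the log scale say little.

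**Figure D4:**
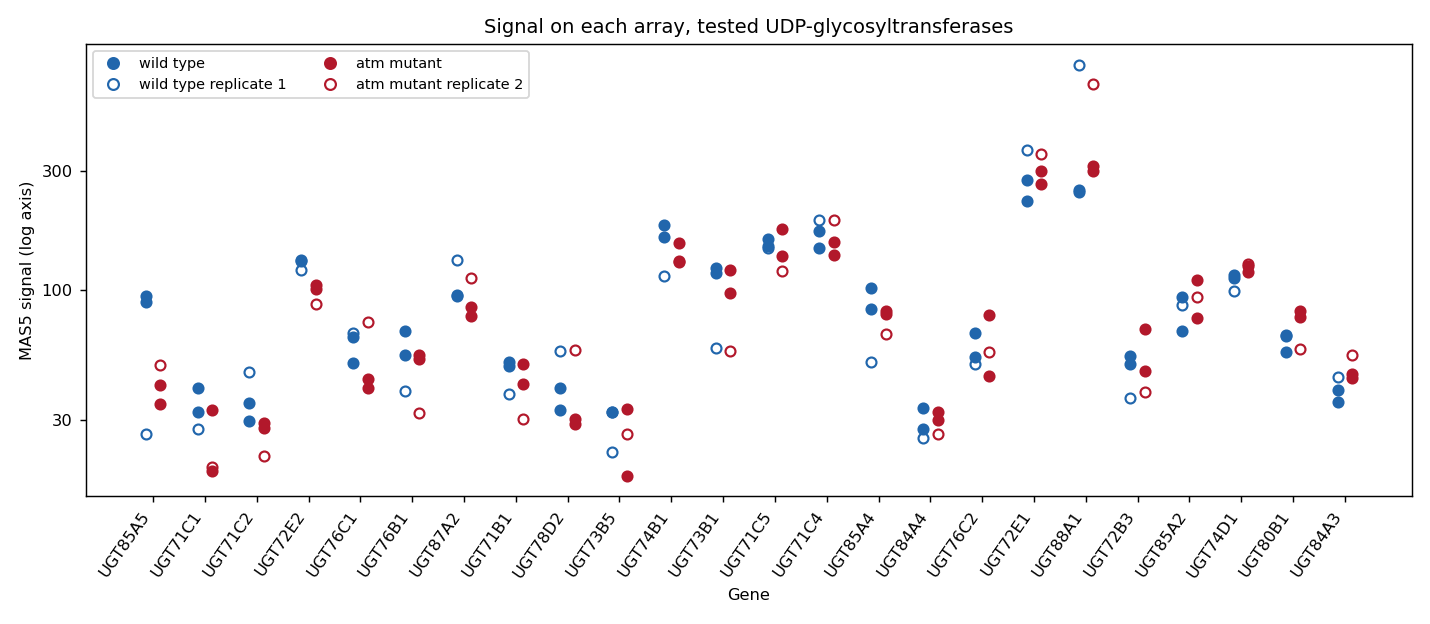
MAS5 signal of the 24 tested UGTs on each of the 6 arrays (log axis), ordered by log2 change, wild type in blue and atm mutant in red, with the pair of arrays that stood apart as open circles. The open circles of UGT88A1, at 801 and 667, lie far above the other 4 values, and in UGT85A5 the wild type open circle is the lowest of all 6.

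Several members varied more with the pair of arrays than with the genotype. UGT88A1 read 801 on wild type replicate 1 and 667 on mutant replicate 2, against 252, 248, 299 and 314 on the other 4 arrays. Both genotypes thus had 1 high array, and the log2 change between them was 0.11 (SE 0.50). Without the pair it was 0.29 (SE 0.11, limma adjusted p = 0.257), and within the pair -0.26. GSTU16 read 106 and 122 on the pair and 52.9 to 68.9 elsewhere, with a log2 change of 0.07 (SE 0.35). GSTU18 read 165 and 133 on the pair and 79.8 to 99.9 elsewhere, with 0.03 (SE 0.29). Both arrays of the pair were the highest of the 6 in 2 of 9 tested GSTs and 6 of 24 tested UGTs, against 18.7% of all tested probe sets. Both were the lowest in 1 GST and 6 UGTs, against 19.4%. Over both families that is 24.2% highest and 21.2% lowest, close to the background. The zinc finger gene STZ, a regulator known to respond to many stresses, read 307 and 140 on the pair and 30.8 to 50.0 elsewhere. The green and root marker sums given above, made up mostly of RCA and PYK10, moved with the pair too. The part of STZ or of the marker sums in the members' values was not tested.

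**Figure D5:**
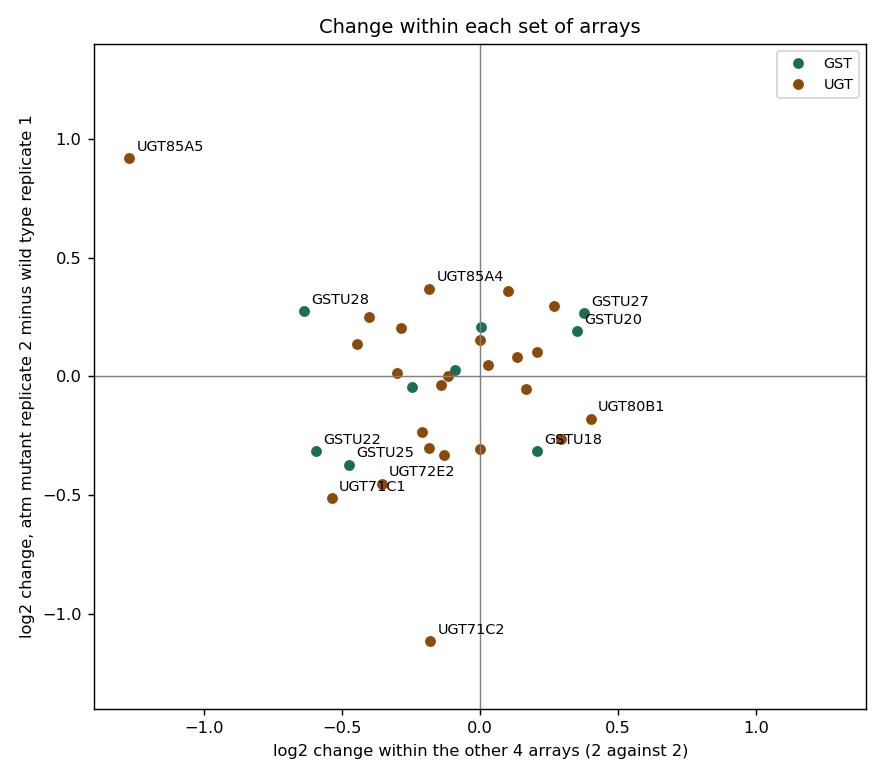
Log2 change of the 33 tested members within the other 4 arrays (horizontal, 2 mutant against 2 wild type) and within the pair (vertical, 1 against 1), GSTs in green and UGTs in brown. GSTU22, GSTU25, UGT72E2 and UGT71C1 lie in the lower left, GSTU20 and GSTU27 in the upper right, and UGT85A5 alone in the far upper left at -1.27 and 0.92.

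The 2 sets of arrays share no sample, so the change can be read in each. It was negative in both for 3 GSTs and 8 UGTs, or 33.3% of the 33 tested members, against 24.1% of all tested probe sets. It was positive in both for 3 GSTs and 5 UGTs, or 24.2%, against 25.4%. Without the pair limma called 1 of 9 GSTs, GSTU22, and 1 of 24 UGTs, UGT85A5, both lower in the mutant, where it called 1.68% of all probe sets, 1.13% lower and 0.547% higher. With a term for the pair in the fit it called none of the members, with 0.777% of all probe sets called, and with array weights also none, with 0.525% called.

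The 5 GSTs and 23 UGTs that were not tested had low signals on most arrays, and 8 of the UGTs lay below the 20th percentile of every array. Their log2 values had a wide spread. ATGSTF13 read 6.33, 19.5 and 12.1 in wild type plants and 6.76, 3.44 and 2.04 in the mutant, and GSTU15 1.06, 12.9 and 2.72 against 0.559, 2.49 and 0.859. GSTF4 read 22.8, 17.0 and 24.8 against 18.9, 38.0 and 21.7. The genotypes overlapped in all 5 of the untested GSTs. UGT78D3 read 2.40 to 4.65 in wild type plants and 6.83 to 8.38 in the mutant, and UGT84B2 0.690 to 2.76 against 2.79 to 5.96. UGT73C2, given with its family, and UGT74F1, at 2.49 to 4.17 against 1.60 to 2.40, were lower in the mutant. In all 4 the groups did not overlap, at signals around the 20th percentile or lower. With no filter on dim signals, limma called none of the 14 GSTs and none of the 47 UGTs. Over all probe sets that fit called 30 of 22746, so few calls are to be had among so few members.

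Genes that work beside these families were looked up from lists of symbols. Few were named in the annotation used here, and most list members are not covered. Limma called 0 of the 11 tested, and none of them had an unadjusted p under 0.05. Over all tested probe sets the shares were 0.223% and 3.36%, so 0 of 11 lies near the background. GR, the plastid glutathione reductase, was the only gene named for glutathione supply and recycling. It read 564, 342 and 351 in wild type plants and 398, 509 and 355 in the mutant, with its 2 highest values on the pair and a log2 change of 0.03 (SE 0.23). AER, an alkenal reductase of reactive carbonyl detoxification, had a log2 change of 0.10 (SE 0.23), and its lowest values of 171 and 180 were on the pair. DFR, of anthocyanin synthesis, had -0.06 (SE 0.25). Of the genes for UDP-sugar supply and the removal of sugars, USP, which makes UDP-sugars, had a log2 change of -0.05 (SE 0.14). Of the other 4 tested in that list 2 were lower and 2 higher, with the beta-glucosidase gene BGLU46 at -0.13 (SE 0.16). The auxin-conjugating genes GH3.3 and WES1 had 0.34 (SE 0.42) and 0.10 (SE 0.54). WES1 read 1274 and 1235 on the pair and 390 to 468 on the other arrays.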

How the data were processed

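The intensity values deposited by the authors are linear MAS5 signals from the GCOS software, per the submitters' processing notes, with 1 value for each probe set on each array. What they were scaled to, and whether they were filtered, is not given in the sources used here. The mean intensity of each array, after trimming 2% at each end, was about 99, and medians lay between 40.0 and 41.3. Precision is limited by the 6 arrays. With 3 against 3 an exact permutation test reaches no p under 0.1, so limma's shared estimate of spread was used.

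The log2 of each intensity was used as it stood, without rescaling or a pseudocount. The 64 control probe sets and those above the 40th percentile on fewer than 3 arrays were left out. The genotype difference (atm mutant minus wild type) came from limma 3.58.1 in R 4.3.3 (lmFit, eBayes with an intensity trend, two-sided, no block). Benjamini-Hochberg adjustment ran over 13895 probe sets. The fit was also tested on simulated data with independent noise. Those data held no arrays that stood apart, so they do not show how the fit behaves with the pair. In all, 19 alternatives were run.

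Names came from the platform annotation and were updated through gene IDs in the RefSeq table of TAIR10.1. Of 22746 probe sets 13513 had 1 gene, of which 13436 matched, 503 had several and 8730 were unnamed here. Other members of these families may be among those. The neighbour order is that of protein-coding genes by their start positions in the same table. No GST or UGT had more than 1 probe set.

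The members, the 6 functional and 4 marker lists and the alternatives were chosen with earlier results of these data known. The text names, per class, the probe set with the highest wild type signal, the members with the smallest p in each direction, those with the widest range, any called member and neighbours of these. It also names members outside these rules, among them UGT73B4, UGT73B5, UGT73C1, UGT73C2, UGT76B1, UGT78D3, UGT84B2, ATGSTF13 and GSTU15. The lists held 6 functional groups (glutathione supply, xenobiotic oxidation and transport, regulators, flavonoids, UDP-sugars, and glucosinolates with salicylate and auxin). Another 4 held markers of green tissue, root, guard and vascular cells, and seed and flower. The symbol CHI was dropped since the reference gives it to a chitinase gene.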

Additional observations from a re-analysis of the deposited data

How the results depend on the processing

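No GST and no UGT was called with 6 arrays, nor in any of the 19 alternatives other than those that drop the 2 arrays that stood apart, 1 of each genotype. There limma called 1 GST (GSTU22) and 1 UGT (UGT85A5), with the filter of the 6 arrays or one remade on the other 4. With no filter it called UGT85A5 and 0 GSTs. These fits and the one with a term for the 2 arrays were chosen after seeing the data, and keeping the 6-array filter when arrays were left out was settled after counts of calls had been seen. Over all probe sets 31 were called, 73 with array weights, 11 with the replicate number as a block, 108 with the term, 233 without both arrays (225 with the filter remade, 111 with none), and 13 to 36 without any 1 array. Leaving out wild type replicate 2 or wild type replicate 3 gave 13. With the replicate block no GST and no UGT was called. Deviations from the group means correlated at -0.461, -0.46 and 0.379 between arrays of the same number. Across genotypes, arrays of unlike number among the other 4 gave 0.315 to 0.385. The 2 arrays that stood apart have unlike numbers and shape these values. This measure therefore cannot show whether the numbers pair the samples. The median log2 change over all members was -0.12 for GSTs and -0.06 for UGTs. It ranged from -0.23 to -0.08 and from -0.13 to 0.01 when 1 array was left out. Each setting moved it by less than the spread between replicates, but the sign for UGTs turned with signals raised to the 20th percentile (0.03).

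Of the 29 named genes tested, leaving out 1 array turned the sign of 13 and moved another 12 by over 1.5 times. The other 4 were GSTU22, GSTU25, GSTU20 and UGT72E2. Small changes of uncalled genes turned sign in 31 of 541 comparisons, and the cause was not tested. With 1 array left out at a time, the range ran from -0.12 to 0.30 for UGT72B3, from -0.26 to 0.026 for UGT71C5, from -0.21 to 0.027 for UGT71C4, from -0.16 to 0.37 for GSTU18, from -0.33 to 0.017 for UGT74B1. It ran from -0.27 to 0.34 for GSTU16, from -0.27 to 0.67 for UGT88A1, from -0.067 to 0.27 for UGT72E1, from -0.051 to 0.15 for UGT84A4, from -0.45 to 0.20 for UGT73B1. It was -0.094 to 0.0043 for GSTL3, -0.17 to 0.24 for UGT76C2, -0.51 to 0.017 for UGT78D2. Array weights gave -0.039 for GSTU16 and -0.010 for UGT76C2, and the other 4 arrays gave -0.0014 for UGT76C2 under all 3 filters. Low MAS5 signals limit what can be said of the 28 untested members.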

Other observations

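Another 3 probe sets are annotated to several genes, at least 1 of them a UGT, and were left out of the members. The one shared by UGT73B2 and UGT73B3 read 148, 352 and 325 in wild type replicates 1, 2 and 3 and 309, 143 and 326 in the mutant. The 2 low values were on the arrays that stood apart, as for UGT73B1. The one shared by UGT89B1 and AT1G73885 read 132 to 165 over the 6 arrays, and the one shared by UGT71D1 and AT2G29710 33.2 to 41.8. None was called by limma, which called 0.223% of all tested probe sets.

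Another 4 genes are UGTs by a synonym in the reference but carry other symbols. GT72B1, also named UGT72B1 and known to glucosylate monolignols and chlorinated phenols, read 72.0 to 95.7 in wild type plants and 106, 69.0 and 112 in the mutant, a log2 change of 0.11 (SE 0.22). SGT, also named UGT80A2, a sterol glucosyltransferase, varied little, at 136 to 147 over the 6 arrays. UF3GT, also named UGT79B1, which extends the sugar chain of anthocyanins, read 2.97 to 25.5, and AT5G54010, also named UGT79B6, 0.544 to 2.14. Neither of the last pair passed the filter.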
